A study of Mus musculus with 8 samples.

Results

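The immunity-related GTPases (IRG proteins) are a family of large GTP-binding proteins that mouse cells make in response to interferon. The 7 members described here were chosen by name: the regulators Irgm1, Irgm2 and Igtp (also called Irgm3) and the effectors Iigp1 (Irga6), Tgtp1, Tgtp2 (Irgb6 gene copies) and Ifi47 (Irgd). The 7 genes were found among the 55487 rows of the count table, and all 7 had enough counts to be tested, as had 16061 genes in all. The rule names genes and uses no measured value.

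Lewis lung carcinoma (LLC), a line of mouse lung cancer cells, was implanted subcutaneously in C57BL/6J mice, and RNA was sequenced from 8 tumors removed at day 12. In 4 tumors the cancer cells were wild-type, and in the other 4 they carried an Ago2 knock-out (ΔAgo2). Ago2 encodes Argonaute 2, which is guided by small RNAs to transcripts, regulates their translation and can cleave its targets. The study asked what the loss of Ago2 in the cancer cells does to the tumor. By its methods, the cells received an Ago2 guide for CRISPR from a lentivirus and were sorted as single cells to obtain clones. The legend of the study's Ago2 blot names a single clone as chosen for engraftment. Other traits of that clone cannot be told apart from the loss of Ago2 in these tumors. The hosts were females bought at 6 to 8 weeks of age. The hosts had an intact Ago2 in both groups, so each sample was a mixture of cancer cells and host cells of which only the cancer cells differed by design. All 8 libraries carried the same batch label.

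IRG proteins guard the cell against parasites and bacteria that live inside membrane-bound vacuoles. The effectors load onto the vacuole and disrupt it, while the regulators stay on the membranes of the cell and hold the effectors in their inactive form until they are needed. Most IRG genes are switched on by interferon-γ, a product of T and NK cells, through promoter sites called GAS, and type I interferons act through another kind of site, the ISRE.

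The genes lie in 2 clusters on chromosome 11, with 1 member on chromosome 18 (GRCm38, GENCODE M21 gene spans). Irgm1 was at chr11:48861968-48871683 on the minus strand, Tgtp1 at chr11:48985327-48994172 and Tgtp2 at chr11:49057194-49064206, also on the minus strand, and Ifi47 at chr11:49076587-49096974 on the plus strand. Igtp (chr11:58199556-58207591) and Irgm2 (chr11:58199618-58222782) lay on the plus strand in the second cluster and shared 162 exonic bases. Iigp1 was at chr18:60376027-60392634 on the plus strand.

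The promoters were read because all members were fitted in the same direction. RefSeq promoters, 250 bases before to 50 bases after the start on GRCm38.p6, were matched for 6 of the 7 members, and Iigp1 was not matched.

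In Igtp, Irgm2, Tgtp1 and Tgtp2 a GAS (TTCNNNGAA) was followed after 2 bases by an ISRE (GAAANNGAAA) on the same strand. These stretches are printed 5′ to 3′ on the gene's strand, with the GAS and the ISRE in capitals, each with 12 bases on either side:
Igtp (chr11:58199499-58199543): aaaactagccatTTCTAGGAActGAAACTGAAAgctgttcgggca
Irgm2 (chr11:58214890-58214934): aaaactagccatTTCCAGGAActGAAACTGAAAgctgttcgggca
Tgtp1 (chr11:48992302-48992346): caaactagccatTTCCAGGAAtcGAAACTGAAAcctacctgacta
Tgtp2 (chr11:49064261-49064305): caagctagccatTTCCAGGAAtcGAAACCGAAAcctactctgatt

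The first base of the GAS lay 45 bases before the start in Igtp, 75 in Irgm2, 88 in Tgtp1 and 81 in Tgtp2. The Igtp and Irgm2 stretches, which stand before a regulator each, differed at 1 of 45 bases. The Tgtp1 and Tgtp2 stretches, from the pair of effector copies, differed at 8 bases, and 29 of the 45 bases were the same in all 4 genes. None of these 4 stretches touched an exon in GENCODE M21. The Irgm2 stretch lay inside the longer Irgm2 gene model and the Tgtp1 stretch inside that of Tgtp1. Both the Tgtp1 and the Tgtp2 stretch also lay inside the span of Olfr56, a gene on the opposite strand.

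Both motifs were searched on both strands in all 32851 promoters of the table. A GAS was found in 8.30% of them, an ISRE in 3.44% and both in 0.454%. The arrangement with a 2-base gap on 1 strand was found in 5 promoters (0.0152%). These were Igtp, Irgm2, Tgtp1, Tgtp2 and Gm12185, an IRG gene that overlaps Tgtp1 on the same strand and shares sequence with it. The start of Gm12185 in GENCODE M21, at chr11:48992226, lies inside the Tgtp1 promoter window. Its match and that of Tgtp1 may therefore be the same bases. Copies of one another are not independent examples of an arrangement. Irgm1 held 2 overlapping ISRE matches and no GAS in its window, at chr11:48871435-48871450 in a stretch that touches an annotated exon of Irgm1:
Irgm1: GAAATAGAAACCGAAA

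The Ifi47 window held neither motif as spelled here. Ifi47 has 5 transcripts in GENCODE M21 and only this window was searched, so any other start of the gene was not read. A match is a run of letters, and binding was not measured in these tumors.

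All 7 genes were detected in all 8 libraries. Libraries held 52809635, 20683668, 47146746 and 7903288 counts in wild-type tumors and 53667597, 106188416, 31846706 and 268564145 counts in ΔAgo2 tumors. Wild-type tumor 1 was thus the deepest of its group. The lowest count of any member was 10, for Tgtp1 in wild-type tumor 4, the shallowest library. Levels are in CPM, counts per 1e+06 after scaling of the library totals, unless TPM, which is also per length of the gene, is named. Values in 1 group of 4 stand in the order of its tumors 1 to 4. Log2 fold changes are ΔAgo2 minus wild-type from the quasi-likelihood test of edgeR over all genes tested, with their standard error (SE) and the p-value adjusted for all of these genes.

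All 7 members were fitted higher in ΔAgo2 tumors, with log2 fold changes from 0.77 to 1.58 and a median of 0.99, beside a median of 0.04 over all genes tested. Of the 7, only Iigp1 passed the adjusted threshold of 0.05. Of all genes tested, 1.36% were called higher in ΔAgo2 tumors and 2.12% were called lower. All 7 had an unadjusted p under 0.05, as had 26.7% of all genes tested, 13.7% with a higher level in ΔAgo2 tumors. In 2 of the 7, Iigp1 and Ifi47, all ΔAgo2 tumors lay above all wild-type tumors, which was also so for 8.05% of the genes tested. Because the sample is bulk tissue, more cells that express these genes and more of their RNA per cell cannot be told apart.

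**Figure D1:**
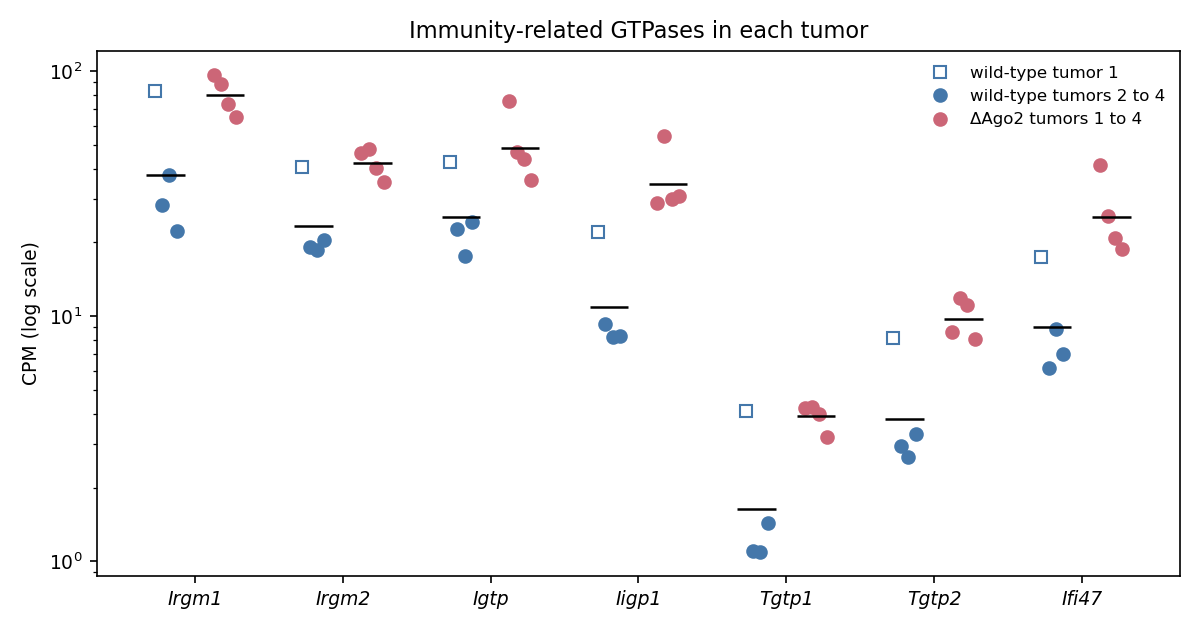
CPM on a log scale for each of the 7 genes, with 1 point per tumor, wild-type in blue and ΔAgo2 in red, and black lines at the geometric mean of each group of 4. Wild-type tumor 1, the open square, stands above the other 3 wild-type tumors for all 7 genes and falls among or close under the ΔAgo2 tumors.

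Among the effectors, Iigp1, which coats vacuoles and breaks them down with other effectors, was at 22.1, 9.30, 8.24 and 8.31 CPM in wild-type tumors. It was at 28.9, 54.3, 30.1 and 31.0 CPM in ΔAgo2 tumors. The groups did not overlap, ΔAgo2 tumor 2 stood highest, and wild-type tumor 1 stood apart from the other wild-type tumors. The mean was 12.0 ± 6.76 CPM in wild-type and 36.1 ± 12.2 CPM in ΔAgo2 tumors (SD, n = 4 each), a log2 fold change of 1.58 (SE 0.37, adjusted p = 0.0456).

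Ifi47, another effector of the vacuole, was at 17.4, 6.15, 8.89 and 7.02 CPM in wild-type tumors. In ΔAgo2 tumors it was at 41.4, 25.6, 20.9 and 18.8 CPM. The groups did not overlap, although the lowest ΔAgo2 tumor was close to wild-type tumor 1. Its log2 fold change was 1.42 (SE 0.37), and its adjusted p of 0.0625 missed the threshold.

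Tgtp1 and Tgtp2 encode nearly the same effector protein. Tgtp2 was at 8.17, 2.96, 2.67 and 3.30 CPM in wild-type tumors and at 8.62, 11.9, 11.1 and 8.07 CPM in ΔAgo2 tumors, so that wild-type tumor 1 lay above the lowest ΔAgo2 tumor. Its log2 fold change was 1.19 (SE 0.38, adjusted p = 0.0955). Tgtp1 was at 4.09, 1.10, 1.09 and 1.43 CPM in wild-type tumors and at 4.21, 4.28, 4.00 and 3.22 CPM in ΔAgo2 tumors. Wild-type tumor 1 lay above 2 of the 4 ΔAgo2 tumors, and the log2 fold change was 0.99 (SE 0.45, adjusted p = 0.187).

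The split of reads between these copies is uncertain. Of the 100-base windows along the longest transcript, 83.3% in Tgtp1 and 80.4% in Tgtp2 occurred again in other genes, which were the respective other copy and Gm12185. Tgtp1 took 26.5% to 33.3% of the pair's counts in the 8 libraries. The counts of both genes were therefore also added, and the sum was 6.20 ± 4.06 CPM in wild-type and 13.8 ± 2.20 CPM in ΔAgo2 tumors (SD, n = 4 each), a log2 fold change of 1.14 (SE 0.38, adjusted p = 0.104).

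Among the regulators, Irgm1 is needed by mice for resistance to intracellular bacteria. It was at 82.9, 28.6, 37.6 and 22.4 CPM in wild-type tumors and at 96.8, 88.8, 73.5 and 64.9 CPM in ΔAgo2 tumors. Wild-type tumor 1 lay above ΔAgo2 tumors 3 and 4, and the other wild-type tumors lay below all of them. The log2 fold change of Irgm1 was 0.91 (SE 0.37, adjusted p = 0.150).

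Irgm2, a regulator found on the Golgi, showed the smallest log2 fold change of the family, 0.77 (SE 0.28, adjusted p = 0.120). It was at 40.5, 19.2, 18.6 and 20.5 CPM in wild-type tumors and at 46.4, 47.9, 40.1 and 35.2 CPM in ΔAgo2 tumors. Wild-type tumor 1 again lay above ΔAgo2 tumors 3 and 4, while wild-type tumors 2 to 4 were within 2 CPM of each other.

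Igtp, the regulator on the endoplasmic reticulum, was at 42.6, 22.6, 17.6 and 24.2 CPM in wild-type tumors and at 75.5, 46.7, 43.9 and 36.1 CPM in ΔAgo2 tumors. Wild-type tumor 1 lay above ΔAgo2 tumor 4 only. Its log2 fold change was 0.92 (SE 0.32, adjusted p = 0.111). Set beside the promoters printed above, the 4 genes with a GAS 2 bases before an ISRE had log2 fold changes of 0.77 to 1.19. Irgm1 with its overlapping ISRE matches had 0.91, and Ifi47, with no match in the only window searched, had 1.42.

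The number of members called changed with 1 library left out. Without wild-type tumor 1, all 7 genes were called higher, in a fit where 1.56% of 16307 genes were called higher in ΔAgo2 tumors. The log2 fold changes then ran from 1.13 (SE 0.22, adjusted p = 0.0270) for Irgm2 to 2.07 (SE 0.29, adjusted p = 0.00797) for Iigp1, and that of Igtp was 1.25 (SE 0.30, adjusted p = 0.0486). Leaving out any one of wild-type tumors 2 to 4 or of ΔAgo2 tumors 2 to 4 left no member called by edgeR, and leaving out ΔAgo2 tumor 1 left Iigp1 alone. The calls without wild-type tumor 1 describe those 7 libraries.

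**Figure D2:**
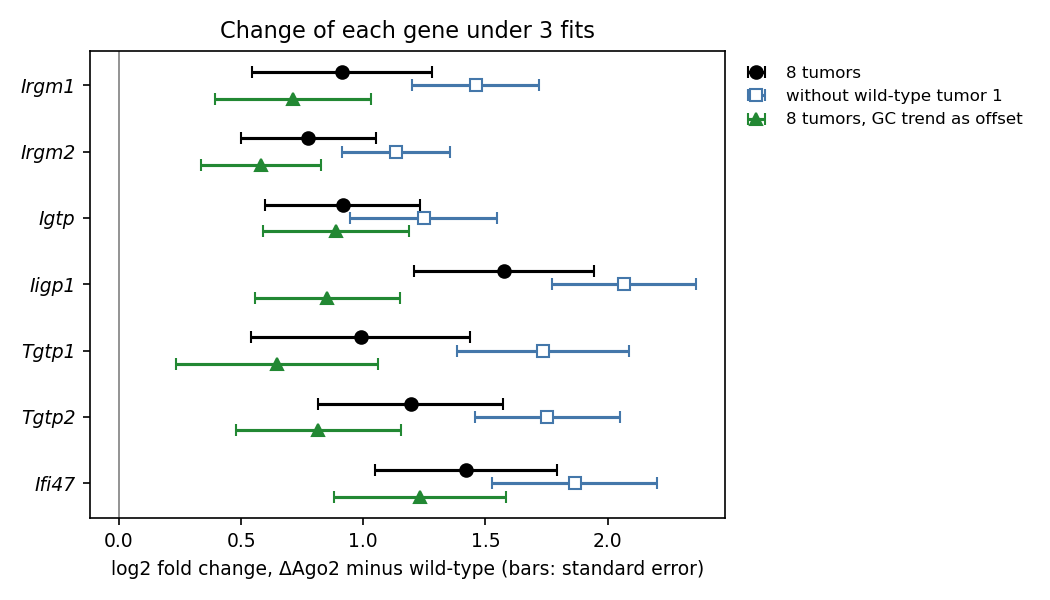
Log2 fold change (ΔAgo2 minus wild-type) of each gene with its standard error, from the 8 tumors, from 7 tumors without wild-type tumor 1, and from 8 tumors with the trend on GC content of each library entered as an offset. All points lie above 0, they move up without wild-type tumor 1, and Iigp1 moves down most with the GC offset, from 1.58 to 0.85.

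The fitted values also changed when a trend on the base composition of the transcripts was entered. The source of that trend was not tested. Iigp1 had the lowest GC content of the family, at 39.3% of the bases of its longest transcript, against 49.5% in Igtp. With the GC trend of each library as an offset the log2 fold change of Iigp1 was 0.85 (adjusted p = 0.143) and no member was called, while Ifi47 had the highest value at 1.23 (adjusted p = 0.0845) and Igtp was at 0.89 (adjusted p = 0.133). All 7 members were still fitted above 0 with this offset.

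The members did not share one order over the tumors. Irgm1, Igtp and Ifi47 were highest in ΔAgo2 tumor 1, and Irgm2, Iigp1, Tgtp1 and Tgtp2 were highest in ΔAgo2 tumor 2. In all 7 genes ΔAgo2 tumor 4 or, for Iigp1, ΔAgo2 tumor 1 was the lowest of its group. Without ΔAgo2 tumor 1 the log2 fold change of Igtp was 0.65 and that of Ifi47 was 1.12, and without ΔAgo2 tumor 2 that of Iigp1 was 1.30.

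Levels between genes were compared per length, in the authors' TPM. Igtp was the most abundant member, at 35.3 ± 16.9 TPM in wild-type and 73.9 ± 11.3 TPM in ΔAgo2 tumors (SD, n = 4 each), and it was the highest in all 8 tumors. Irgm1 and Irgm2 followed, at 20.3 ± 14.3 and 17.97 ± 9.05 TPM in wild-type and at 42.6 ± 9.03 and 35.5 ± 8.54 TPM in ΔAgo2 tumors. These neighbors could not be ordered, since Irgm1 was above Irgm2 in 6 of 8 tumors and their SDs overlapped.

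The effectors were lower per length than the regulators, except for Ifi47 in ΔAgo2 tumor 1. Ifi47 was at 10.8 ± 6.46 and 31.8 ± 6.44 TPM, and it was below Irgm2 in 7 of 8 tumors. Iigp1 was at 5.59 ± 3.57 and 19.9 ± 10.01 TPM. Tgtp2 was at 3.92 ± 2.69 and 10.6 ± 3.58 TPM and Tgtp1 at 1.62 ± 1.34 and 3.78 ± 0.855 TPM, each in wild-type and ΔAgo2 tumors in turn. Ifi47, Iigp1, Tgtp2 and Tgtp1 held this order in all 8 tumors.

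Summed over the 7 genes, the level was 174, 76.2, 76.3 and 54.9 TPM in wild-type tumors and 203, 280, 202 and 188 TPM in ΔAgo2 tumors. The groups of this sum did not overlap, and wild-type tumor 1 was the closest to the ΔAgo2 tumors. The effectors took a larger part of it in ΔAgo2 tumors. The ratio of the 4 effectors to the 3 regulators, a measure added after the data were seen, was 0.321, 0.255, 0.310 and 0.273 in wild-type and 0.390, 0.488, 0.412 and 0.433 in ΔAgo2 tumors.

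For this ratio wild-type tumor 1 stayed with its group, unlike for the level of each gene. The mean was 0.290 ± 0.0311 in wild-type and 0.431 ± 0.0420 in ΔAgo2 tumors (SD, n = 4 each). With the GC trend removed from the counts the means were 0.321 ± 0.0190 and 0.386 ± 0.00941, a smaller difference with groups that still did not overlap, between 0.297 and 0.344 and between 0.372 and 0.391. Without Iigp1 among the effectors the ratio ran from 0.180 to 0.240 in wild-type and from 0.295 to 0.316 in ΔAgo2 tumors. No test was run on the ratio, because its genes were grouped with their changes known.

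**Figure D3:**
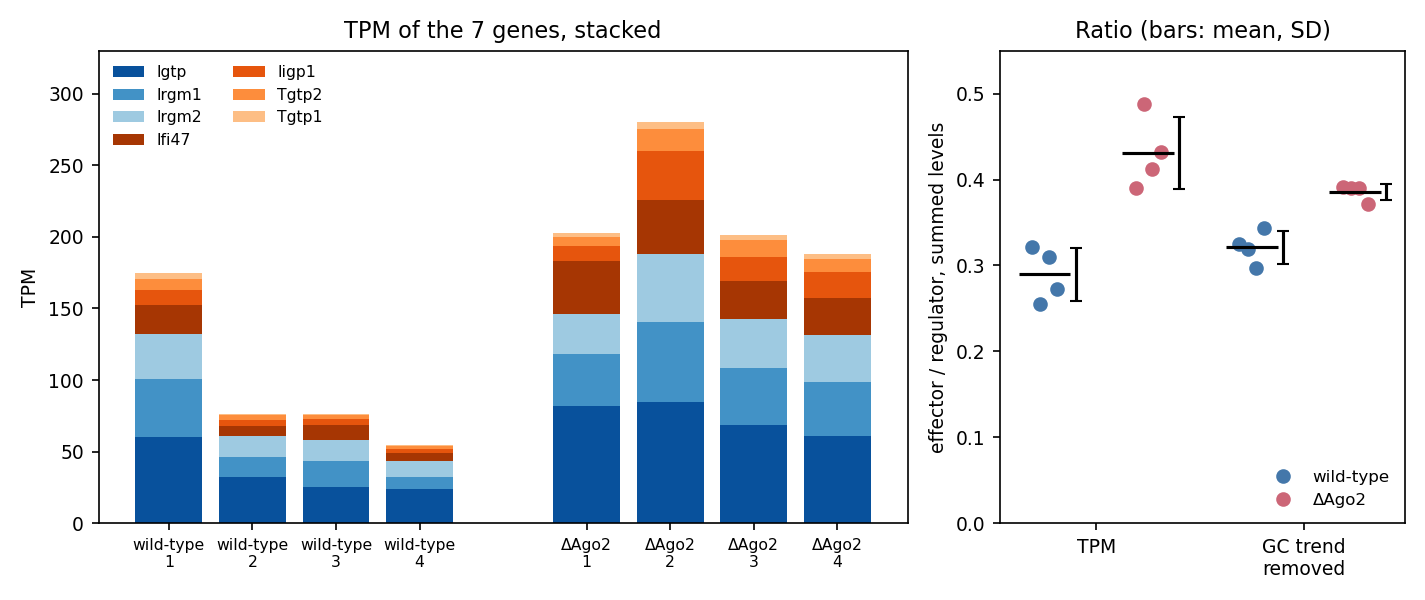
Left, TPM of the 7 genes stacked for each tumor, with the 3 regulators in blue shades and the 4 effectors in orange shades; the stack reaches 174 TPM in wild-type tumor 1, 54.9 to 76.3 TPM in wild-type tumors 2 to 4 and 188 to 280 TPM in ΔAgo2 tumors. Right, the ratio of effectors to regulators in each tumor, from TPM and after removal of the GC trend, with the mean and SD of each group of 4; the groups do not overlap on either scale.

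The other IRG genes in the annotation were 10, mostly with predicted gene names, and all 10 were tested. None was called in the main fit, where 5 of them had an unadjusted p under 0.05, beside 26.7% of all genes. DESeq2 called 5 and voom 3, and over all genes these tools called 14.9% and 27.9%. Of the 10, 9 were fitted above 0, with a median log2 fold change of 1.19. Gm4951 was at 2.61, 1.29, 1.09 and 0.287 CPM in wild-type and 3.24, 8.92, 5.13 and 5.17 CPM in ΔAgo2 tumors, with no overlap and a log2 fold change of 2.00 (SE 0.51, adjusted p = 0.0592). Gm12250, known as Irgb10 and tied to the attack on bacterial membranes, was between 1.003 and 5.83 CPM in wild-type and between 6.95 and 14.9 CPM in ΔAgo2 tumors, also with no overlap (log2 fold change 1.65, SE 0.45, adjusted p = 0.0665). Groups with no overlap and higher ΔAgo2 tumors were found for 8.05% of the genes tested.

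Among the remaining family genes the highest log2 fold changes were 2.27 (SE 0.73) for 9930111J21Rik1, 1.83 (SE 0.68) for 9930111J21Rik2 and 1.24 (SE 0.46) for Gm5431, with adjusted p of 0.0989, 0.126 and 0.128. F830016B08Rik, Gm4841, Irgc1 and Gm12185 were between 0.64 and 1.13, with adjusted p from 0.218 to 0.442. Irgq, a distant relative not known for induction by interferon, was the most abundant of the list and showed no detectable change, at 33.0 ± 5.60 CPM in wild-type and 32.2 ± 8.03 CPM in ΔAgo2 tumors (SD, n = 4 each; log2 fold change -0.04, SE 0.24, adjusted p = 0.935).

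Genes outside the family that lie beside the members on the chromosomes did not move as a block. The other IRG genes in the same stretches are not counted here. Those that code for protein were all fitted above 0, from 0.64 for Gm12185 to 2.27 for 9930111J21Rik1. Of 17 protein-coding genes outside the family within 100 kb of a member, 14 were tested. Of the tested genes, 6 were fitted above 0, with a median log2 fold change of -0.18 over the 14. Of these, 1 was called, Trim7, a ubiquitin ligase gene beside Irgm1, and it was lower in ΔAgo2 tumors, at 4.60 ± 0.883 CPM against 11.3 ± 2.66 CPM (SD, n = 4 each; log2 fold change -1.30, SE 0.27, adjusted p = 0.0304). Over all genes tested, 2.12% were called lower. Trim7 was named after its value was seen, and it was not called without wild-type tumors 2 or 4 or ΔAgo2 tumors 2, 3 or 4, 1 at a time.

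The guanylate-binding proteins (GBPs) are the other large GTPases of this defense and work on the same vacuoles. Of 11 listed genes 8 were tested, all 8 were fitted above 0 with a median log2 fold change of 1.38, and 2 were called higher. Of all genes tested, 52.5% were fitted above 0 and 1.36% were called higher. Gbp7 was at 4.78, 5.34, 2.57 and 3.01 CPM in wild-type and at 7.16, 39.7, 9.16 and 21.5 CPM in ΔAgo2 tumors (log2 fold change 2.30, SE 0.53, adjusted p = 0.0434). Gbp3 was at 19.1, 7.68, 8.56 and 8.03 CPM and at 27.4, 41.1, 27.8 and 23.2 CPM (log2 fold change 1.45, SE 0.33, adjusted p = 0.0439). With 1 tumor left out at a time, Gbp7 was called only without ΔAgo2 tumor 1 (adjusted p = 0.0197), and Gbp3 only without that tumor (adjusted p = 0.0380) or without wild-type tumor 1 (adjusted p = 0.00797).

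Gbp2, the most abundant GBP, was at 92.9, 36.9, 36.5 and 32.8 CPM in wild-type and at 136, 114, 99.4 and 86.2 CPM in ΔAgo2 tumors. Like the GTPases of the family, it was high in wild-type tumor 1. Its log2 fold change was 1.12 (SE 0.34, adjusted p = 0.0856), and that of Gbp9 was 1.49 (SE 0.41, adjusted p = 0.0693).

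Gbp2 was also the gene outside the family whose pattern was most like it. Over the 8 tumors the log2 CPM of Gbp2 had a Pearson correlation of 0.994 with the mean standardized log2 CPM of the 7 members, the highest of 13059 genes with a mean of at least 1 CPM. Gbp3 (0.973), Usp18 (0.972), Phf11d (0.970) and Tor3a (0.969) came next. Since the groups lie apart in these genes, the values were also taken after each genotype was centered on its own mean, where Gbp2 was again the highest at 0.984, followed by Diaph1 (0.938), Gbp3 (0.928), Slamf7 (0.922) and Tagap (0.921). These correlations describe 8 libraries that share their depth and composition with every gene in them, and wild-type tumor 1 is far from its group in the centered values.

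Genes known to respond mostly to type I interferon were high in the tumors in which the family was high. The summed level of genes that respond mostly to interferon-γ, carried by MHC class II, had another order over the tumors. Which interferon acted on the family was not tested. The summed level of the 16 genes of the first list was 406, 230, 198 and 158.8 CPM in wild-type tumors and 629, 710, 625 and 434 CPM in ΔAgo2 tumors. All 16 were fitted above 0 with a median log2 fold change of 1.39, beside 52.5% of all genes tested fitted above 0. In this list 2 were called, Rsad2 and Oas2, beside 1.36% of all genes called higher. Oas2 was named after its value was seen. Rsad2, which encodes the antiviral viperin, was at 14.4 ± 8.48 CPM in wild-type and 58.8 ± 13.4 CPM in ΔAgo2 tumors (SD, n = 4 each; log2 fold change 2.01, SE 0.36, adjusted p = 0.0177). Oas2, a sensor of double-stranded RNA, had a log2 fold change of 1.61 (SE 0.37, adjusted p = 0.0435). Rsad2 was not called without wild-type tumor 2, ΔAgo2 tumor 2 or ΔAgo2 tumor 3 (adjusted p = 0.0515 to 0.0689), and Oas2 was not called without wild-type tumors 2 or 4 or ΔAgo2 tumors 2, 3 or 4 (adjusted p = 0.0882 to 0.131), 1 at a time.

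The summed level of the 10 genes leaning to interferon-γ, most of it from genes of MHC class II, was 1195, 1029, 754 and 1921 CPM in wild-type tumors and 2428, 688, 678 and 560 CPM in ΔAgo2 tumors. It was high in ΔAgo2 tumor 1 and in wild-type tumor 4, and lower in ΔAgo2 tumors 2 to 4 than in all wild-type tumors. None of the 10 was called by edgeR or DESeq2 and 3 by voom, which called 27.9% of all genes, and the median log2 fold change was -0.06. An unadjusted p under 0.05 was found for 2, beside 26.7% of all genes, and both were fitted higher in ΔAgo2 tumors. These were Ubd, a ubiquitin-like modifier (log2 fold change 2.49, SE 0.85, adjusted p = 0.109), and Ido1, which breaks down tryptophan (2.03, SE 0.67, adjusted p = 0.103), both named after their values were seen and both low, at means of 0.377 and 0.112 CPM in wild-type and 1.74 and 0.558 CPM in ΔAgo2 tumors. The groups did not overlap for Ido1, which had 0 to 10 counts in wild-type libraries. No overlap with higher ΔAgo2 tumors was found for 8.05% of all genes tested. Cxcl9, a chemokine that attracts T cells and also named after its value was seen, was at 1.14 on the log2 scale (SE 0.57, adjusted p = 0.218). Cd74, the invariant chain of MHC class II, had a log2 fold change of -0.19 (SE 0.51, adjusted p = 0.836) with all tumors and of -0.98 without ΔAgo2 tumor 1.

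**Figure D4:**
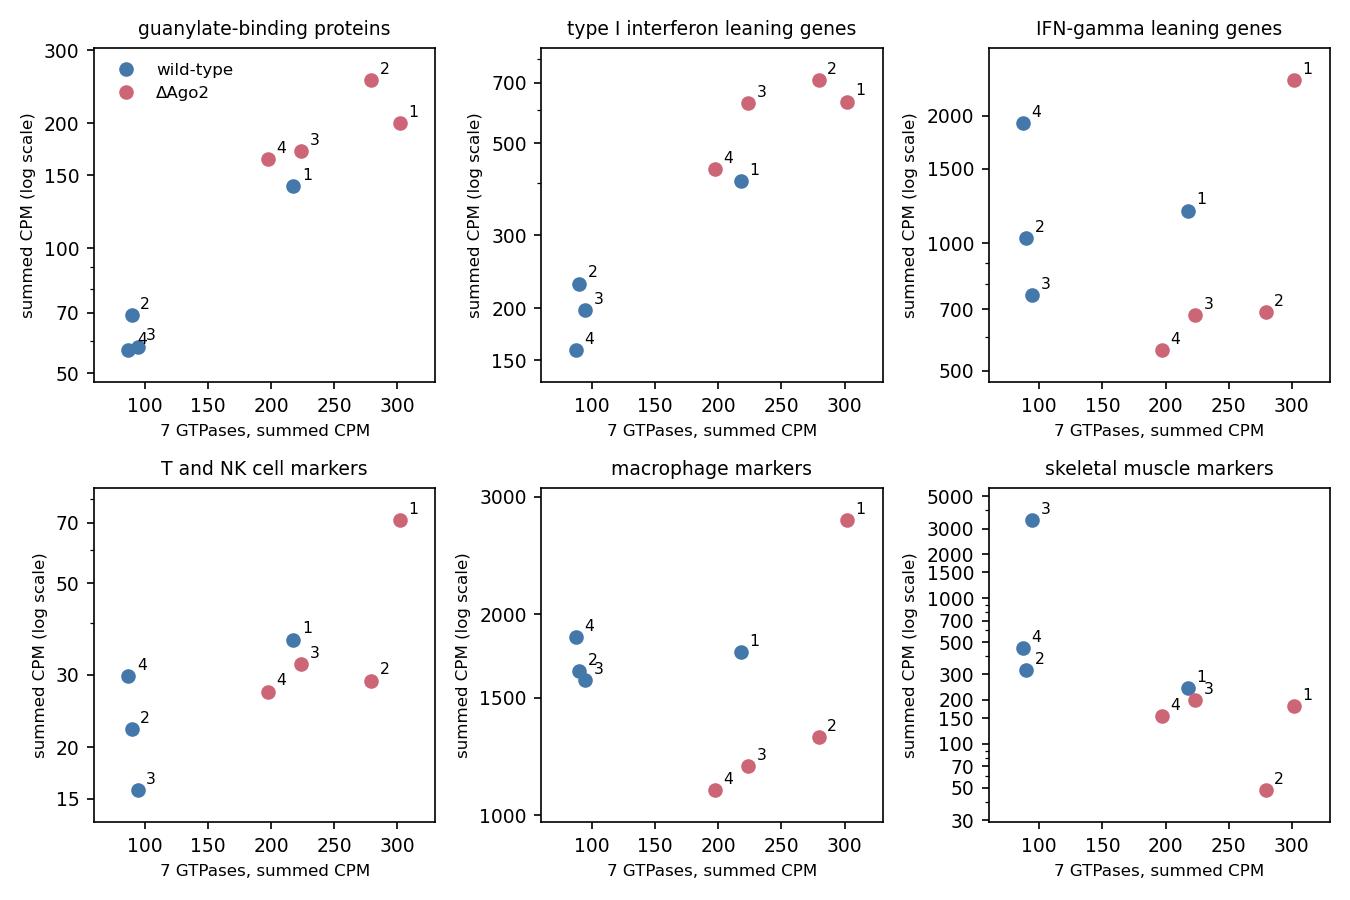
Summed CPM of the 7 GTPases on the horizontal axis against the summed CPM of 6 other lists on log axes, with 1 numbered point per tumor (wild-type blue, ΔAgo2 red). In the panels of GBPs and type I interferon genes wild-type tumor 1 sits between the other wild-type tumors and the ΔAgo2 tumors, and in the panels of interferon-γ genes and macrophage markers ΔAgo2 tumor 1 stands apart from ΔAgo2 tumors 2 to 4.

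Of the genes that carry the interferon signal, 15 were listed, 14 were tested and none was called by edgeR or DESeq2, while 3 had an unadjusted p under 0.05 and voom called 4, beside 26.7% and 27.9% of all genes. The median log2 fold change was 0.31.

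Irf1, a transcription factor induced by interferon, was at 107 ± 27.1 CPM in wild-type and 116 ± 32.8 CPM in ΔAgo2 tumors (SD, n = 4 each; log2 fold change 0.11, SE 0.25, adjusted p = 0.793), and the sign of that value changed when 1 library was left out. The kinase gene Jak1 (0.53, adjusted p = 0.273), Stat2 (0.48, adjusted p = 0.286) and Ifngr1, a chain of the interferon-γ receptor (-0.33, adjusted p = 0.215), were not called in the same fit of log2 fold changes. Ifng itself did not pass the filter, with 2 to 35 counts per library.

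The proteins that place IRG effectors on vacuoles were also measured as RNA. Of 10 genes of the autophagy machinery that loads them none was called, with a median log2 fold change of 0.08. An unadjusted p under 0.05 was found for 1 of them, beside 26.7% of all genes. DESeq2 called 1 and voom 4, beside 14.9% and 27.9% of all genes. Gabarap was at -0.29 (adjusted p = 0.506) and Map1lc3b at -0.34 (adjusted p = 0.307) on the log2 scale. The products of 3 listed genes come to vacuoles coated with IRG proteins. Of these, Traf6, a ubiquitin ligase gene, was at 20.99 ± 3.46 CPM in wild-type and 35.5 ± 8.84 CPM in ΔAgo2 tumors (SD, n = 4 each). Its log2 fold change was 0.75 (SE 0.24, adjusted p = 0.0933). Its groups did not overlap, which was also so, with ΔAgo2 tumors higher, for 8.05% of the genes tested. Sqstm1, the ubiquitin adaptor p62, was at a log2 fold change of -0.09 (adjusted p = 0.776) and Trim21 at 0.62 (adjusted p = 0.214).

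Markers of other cell types stood beside these levels as follows. The summed level of 12 T and NK cell markers was 36.5, 22.1, 15.8 and 29.8 CPM in wild-type and 71.1, 29.0, 31.8 and 27.3 CPM in ΔAgo2 tumors, so that wild-type tumor 1 and ΔAgo2 tumor 1 were the highest of their groups. That of 8 macrophage markers ran from 1596 to 1849 CPM in wild-type tumors, was 2770 CPM in ΔAgo2 tumor 1 and ran from 1091 to 1308 CPM in ΔAgo2 tumors 2 to 4. That of 5 leukocyte markers, most of it from Coro1a and Laptm5, ran from 462 to 906 CPM and from 433 to 840 CPM. In this list 3 genes were fitted above 0 and 2 below. Their log2 fold changes ran from -0.87 for Coro1a (adjusted p = 0.263) to 1.12 for Ptprc, which encodes CD45 (adjusted p = 0.0785). Ptprc and 3 T and NK cell markers, Ncr1, Gzmb and Prf1, did not overlap and were higher, beside 8.05% of all genes tested. These 4 were named after their values were seen. Of the macrophage markers 1 did not overlap and was lower, a direction in which the share over all genes is not given here. None of these 25 genes was called by edgeR, and 6 had an unadjusted p under 0.05, near the share of 26.7% over all genes, of which 5 with a higher level in ΔAgo2 tumors.

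Markers of muscle were fitted lower and those of skin higher in ΔAgo2 tumors, and both stood apart in wild-type tumor 3. All 8 skeletal muscle markers had an unadjusted p under 0.05, beside 26.7% of all genes tested, and none was called. Of the 7 keratinocyte markers, all fitted higher, 2 had an unadjusted p under 0.05 and 3 did not overlap, beside 8.05% of all genes. In this list 1 was called, beside 1.36% of all genes called higher. It was Krt10, a keratin of differentiating epidermis that was named after its value was seen. Krt10 was at 20.97, 22.0, 3.30 and 15.5 CPM in wild-type and at 62.0, 42.1, 70.2 and 83.2 CPM in ΔAgo2 tumors (log2 fold change 2.06, SE 0.48, adjusted p = 0.0460). It was called without wild-type tumor 3 (adjusted p = 0.0144) or ΔAgo2 tumor 1 (adjusted p = 0.0430) and not without any other single tumor.

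Wild-type tumor 3 stood furthest apart in both lists. Its 8 skeletal muscle markers summed to 3437 CPM against 242 to 452 CPM in the other wild-type and 48.3 to 200 CPM in the ΔAgo2 tumors, and its 7 keratinocyte markers to 14.7 CPM against 170 to 578 CPM in the other wild-type and 457 to 887 CPM in the ΔAgo2 tumors. The members were not apart in that tumor, where they were near wild-type tumors 2 and 4. The 4 lung epithelial markers had 0 to 2 counts per library, with Nkx2-1 at 0 in all. Of the carcinoma markers, Krt8 had means of 315 CPM in wild-type and 424 CPM in ΔAgo2 tumors, and Krt18 of 479 and 516 CPM. The others of that list were lower, with means of 5.52 and 4.08 CPM for Krt19, 4.21 and 11.2 CPM for Cdh1, and 1.23 and 3.04 CPM for Epcam. Epcam was named after its value was seen. The part of these cell types in the level of the GTPases was not tested.

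Ago2 itself was at 130, 195, 151.3 and 138 CPM in wild-type and at 118, 355, 215 and 270 CPM in ΔAgo2 tumors (log2 fold change 0.64, SE 0.30, adjusted p = 0.205). A CRISPR edit need not lower the transcript and the host cells keep it, so this RNA gives no check of the labels.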

How the data were processed

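RNA from 8 tumors, each labelled a biological replicate, was sequenced with a stranded mRNA kit. Per the labels, STAR and mm10 were used. For bulk RNA-seq the study's methods describe alignment to ribosomal RNA and then mm10 and counting with featureCounts. The strand setting and the treatment of reads with several matches were not given in the sources used here. The authors deposited raw gene counts with no normalization, and TPM values, made from counts, gene length and a total of 1e+06 per library. Identifiers were matched to GENCODE M21, 99.29% with their version and a further 300 without it.

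Counts were tested with edgeR 4.0.16 in R 4.3.3 (filterByExpr, TMM, quasi-likelihood, no covariate, Benjamini-Hochberg at 0.05). The p-values measure the spread between these tumors and not the spread between clones of cells. CPM used TMM-scaled totals, and log2 CPM a prior count of 2. A count of 0 allows up to 3 counts, which is 0.430 CPM in the shallowest and 0.0105 CPM in the deepest library, for counting error only. Alternatives were DESeq2 1.42.0, limma 3.58.1 (voom with quality weights, and log2 of TPM plus 1 or 0.1), other scalings and filters, thinning to the shallowest library, a GC offset, the replicate number as a block and leaving out each library. Sequences were read with Python 3.11.15 from RefSeq promoters. The procedure was tested on simulated data. The members and lists were chosen with earlier results of these data known. The genes named were the members, the other IRG genes, the most abundant tested genes of each list, Ago2, Irf1 and the 5 genes with the most similar pattern on each of 2 scales, and exceptions are marked in the text. 1 gene that this rule for naming covers is not reported here. The study's other experiments were not analysed here.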

Additional observations from a re-analysis of the deposited data

Results flagged for a closer look

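In a test for single libraries that stand apart (Dixon's ratio of the gap to the range at its critical value for 4 samples), 3 values on the log2 CPM scale stood out among the 14 groups of 4 tumors tested for the 7 genes, where chance gives about 0.7. Irgm2 in wild-type tumor 1 was at 5.342, with the other wild-type tumors between 4.22 and 4.359. Iigp1 in wild-type tumor 1 was at 4.468, with the others between 3.047 and 3.221. Iigp1 in ΔAgo2 tumor 2 was at 5.763, with the other ΔAgo2 tumors between 4.853 and 4.956. Genes of 1 family share their libraries, so the first pair of these values is not independent.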

How the results depend on the processing

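All 7 members were fitted above 0 in each of the 21 alternatives, with the lowest value under voom (0.33 for Irgm1, 0.36 for Irgm2, 0.37 for Igtp) except for Iigp1, which was lowest with the GC offset (0.85). The count of members called, 1 in the main result, was 3 with DESeq2 (Iigp1, Ifi47 and Tgtp2), 2 with no count filter, and 0 with total counts, after thinning, with the GC offset and on each of the 3 TPM scales. Over all genes, DESeq2 called 2292 of 15380 (14.9%), and the fit with no count filter called 983 of 30344. Leaving out 1 library gave 0 to 7. The call of Iigp1 was lost in 14 of the 21 alternatives, and its adjusted p ran from 0.00131 to 0.197. The replicate numbers did not pair the tumors, with correlations of deviations of -0.24, 0.10, -0.04 and -0.29 for numbers 1 to 4. With the replicate block 0 members were called, and with the block and the GC offset together 1 was called, Ifi47 (adjusted p = 0.0237). Calls among all genes, 560 in the main result, ran from 70 with the replicate block to 4476 with voom, those among the guanylate-binding proteins from 0 to 5 and those among the type I interferon genes from 0 to 11. The cause of these changes was not tested.

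Values near 0 changed sign. Irgq was at 0.037 with total counts, 0.024 with no filter, 0.043 with voom, 0.36 with the GC offset, 0.35 with the block and the GC offset, and 0.15, 0.16 and 0.15 on the TPM scales (where the median of all genes was 0.21, 0.28 and 0.03), and leaving out 1 library gave -0.14 to 0.12. Sqstm1 was at 0.19 with the GC offset, alone and with the block, and at 0.12, 0.12 and 0.12 on the TPM scales. Cd74 was at 0.27 with the GC offset and 0.10 with it and the block, and between -0.98 and 0.26 with 1 library left out. H2-Ab1, another MHC class II gene, was at 0.19 with the GC offset and between -1.15 and 0.080 with 1 library left out. Tagap was at -0.24 with voom, F830016B08Rik at -0.010 with the block and the GC offset, and Irf1 between -0.11 and 0.23 with 1 library left out. The difference in the ratio of effectors to regulators, 0.141, was 0.0648 with the GC trend removed and 0.0874 without Iigp1, both chosen after the data were seen, and 0.122 to 0.155 with 1 library left out. Depth limits most the values with few counts in the shallowest library, where 9930111J21Rik1 had 0 counts, Gm4951, Irgc1 and F830016B08Rik had 2 each, and Tgtp1, the lowest of the 7 members, had 10.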
